A study of Mus musculus with 18 samples.

Results

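The nuclear genes of the mitochondrial respiratory chain and of ATP synthase were taken by symbol: every gene beginning with Nduf followed by a, b, c, s or v, the 4 Sdh subunit genes, and all symbols beginning with Uqcr, with Cox4 to Cox8, or with Atp5. Of 19475 genes measured by a probe set assigned to a single gene, 89 met this rule. They comprised 6 core subunits, 28 accessory subunits and 7 assembly factors of complex I, the 4 subunits of complex II, 8 genes of complex III, 11 complex IV genes used in most tissues, 8 complex IV isoform genes known from muscle, testis, lung or hypoxia, and 17 genes of ATP synthase. Cox7c, Ndufb4, Ndufb4b and Ndufs5-ps shared their probe sets with other genes and were not analysed here, nor were the subunits encoded by mitochondrial DNA.

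The cells were mouse bone marrow-derived macrophages on day 7 of differentiation, grown with L929-conditioned medium from mice of a mixed background (94% C57BL/6, 6% 129/Ola). Wbp7-/- cells (KO) and Wbp7+/- cells (HET) were each untreated or given lipopolysaccharide (LPS, a bacterial membrane component) at 10 ug/ml for 2 h or 4 h, with 3 arrays in each of the 6 groups. HET cells carry 1 mutated copy of Wbp7, which encodes a histone H3 lysine 4 methyltransferase, so neither genotype is wild type. The labels name no Cre or promoter and do not say whether arrays came from separate animals or how the cells of a replicate number were split over the 3 times. If they share an animal, the p-values measure only the spread between those arrays.

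The respiratory chain passes electrons from NADH through complex I, or from succinate through complex II, to complex III and then by cytochrome c to complex IV, where oxygen is reduced. Complexes I, III and IV pump protons, and ATP synthase uses the gradient to make ATP. Macrophages given LPS are known to shift towards glycolysis, to accumulate succinate, the substrate of complex II, and to make less of their ATP by respiration.

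Wbp7 (listed as Kmt2b) averaged 10.41 ± 0.0627 on the log2 scale in untreated KO cells and 10.66 ± 0.27 in untreated HET cells (SD, n = 3 each) and was not called; the labels do not place its probes relative to the deleted part, so this does not check the genotype. All 8 LPS response genes listed as a check, Il6 and Nos2 among them, were called higher after LPS in both genotypes at both times. The macrophage markers Csf1r, Adgre1, Cd68 and Lyz2 had signals of 13.46 to 14.3 on all arrays, whereas Cd163 lay between 6.49 and 7.02. The progenitor genes Mpo and Elane averaged 9.4 and 9.85 in untreated KO cells and 8.18 and 8.7 in untreated HET cells. The other genes of that marker list did not share this difference. Ly6g, S100a8, Ngp and Ltf averaged 6.56, 8.3, 10.6 and 8.37 in untreated KO cells, against 6.68, 8.52, 10.72 and 8.55 in untreated HET cells. S100a9 and Camp averaged 8.61 and 7.36, against 8.59 and 7.31. HET replicate 1 stood apart at all 3 times: its cell cycle genes lay a median 2.74 log2 units below the other untreated HET arrays, 2.64 below at 2 h and 2.09 below at 4 h. Results that rest on this replicate are given with and without it. With 3 arrays a group, precision is limited by their number.

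The 89 genes were among the brightest on the array. In mean signal 63 of them lay above the 75th percentile of all genes and 36 above the 90th, and 6 lay below the median. Atp5d, the delta subunit of the ATP synthase rotor stalk, had the highest mean signal of the members, at 13.2 to 13.86 over the 18 arrays. The brightest members of the other roles included Cox6c of complex IV at 13.47 to 13.79, the accessory subunit Ndufc2 at 12.79 to 13.38, the core subunit Ndufs7 at 12.42 to 13.47 and Uqcrb of complex III at 12.92 to 13.3. Of the 8 isoform genes Cox7a1, the muscle isoform of subunit VIIa, had the highest mean over all arrays, 9.107, just above Cox6a2 at 9.08, whose replicates differed widely. At the other end, Cox7b2, a testis isoform, had a mean of 5.748, and the isoform genes Cox8b, Cox6b2 and Ndufa4l2 had means of 7.509, 7.553 and 7.647. These are positions within the array's signals, since the levels of different probe sets cannot be set against each other as amounts of RNA.

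LPS for 4 h in HET cells was the comparison with the most members called. Ndufaf4, Ndufaf3, Ndufaf6 and Ndufaf7, which encode assembly factors of complex I, fell, as did the accessory subunit Ndufb10, the iron-sulfur subunit of complex II Sdhb and the ATP synthase ring subunit gene Atp5g2. Cox8b, a complex IV isoform of muscle and brown fat, rose. These 8 genes were the members called by limma, with Benjamini-Hochberg adjustment over all genes and a threshold of 0.05. They were 8.99% of the 89, against 36.4% of all genes. The 7 lower calls were 7.87% of the members, against 20.7% of all genes, and the 1 higher call was 1.12%, against 15.7% of all genes. The split changed with the scaling: it was 6 lower and 6 higher with quantile normalization and 5 lower and 2 higher with each array centred on its median. Less RNA per cell and fewer cells of a type cannot be told apart in these bulk samples.

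Ndufaf4, a complex I assembly factor needed for the early membrane-bound intermediates, had the largest change among the members. Its log2 signal was 7.08, 7.98 and 7.93 in HET cells at 4 h of LPS, against 8.84, 8.72 and 9.41 in untreated HET cells. Every treated array lay below every untreated one. The difference was -1.33 ± 0.244 (SE; 0.399-fold, limma adjusted p = 0.00057), and without HET replicate 1 it was -1.11 (adjusted p = 0.000512). At 2 h the HET arrays had 7.87, 8.61 and 8.48, all below the untreated arrays, a difference of -0.67 that did not pass the threshold (adjusted p = 0.0811).

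In KO cells Ndufaf4 had 8.86, 9.31 and 8.94 untreated, 8.65, 8.84 and 8.86 at 2 h, and 8.35, 8.61 and 8.37 at 4 h. The 4 h arrays again lay below all untreated arrays, by less than in HET cells. The difference was -0.60 ± 0.244 (0.661-fold, adjusted p = 0.123). The gap between the genotypes in this response, 0.73 ± 0.345 (KO minus HET; 95% interval 0 to 1.46), was not called (adjusted p = 0.697).

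**Figure D1:**
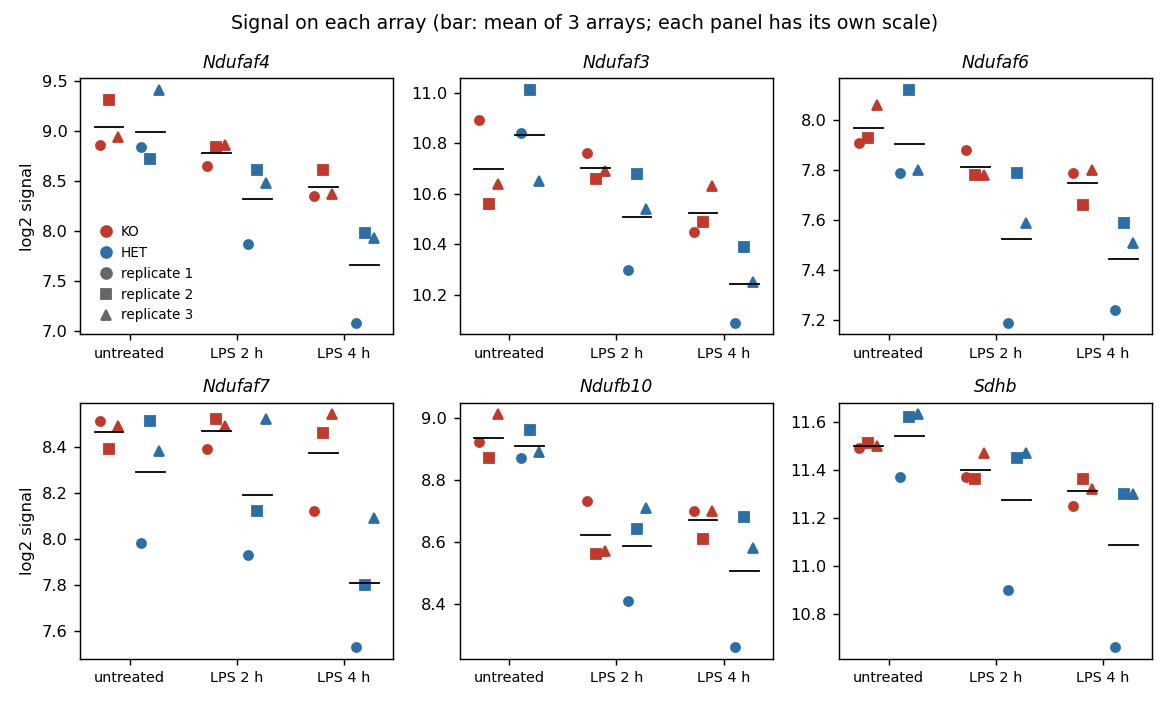
Log2 signal of 6 members on each array, by LPS time, with KO left of HET at each time; circles, squares and triangles are replicates 1, 2 and 3 and bars are means of 3 arrays. Ndufaf4 lies between 7.08 and 7.98 on the HET arrays at 4 h, below all untreated arrays, and HET replicate 1 is the lowest array at 4 h in every panel.

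Ndufaf3, which works with Ndufaf4 in assembly, had 10.09, 10.39 and 10.25 in HET cells at 4 h of LPS, against 10.84, 11.01 and 10.65 in untreated HET cells. The groups did not overlap. The difference was -0.59 ± 0.121 (adjusted p = 0.00139), and -0.51 without HET replicate 1 (adjusted p = 0.00741). In KO cells the arrays at 4 h, at 10.45, 10.49 and 10.63, overlapped the untreated ones at 10.89, 10.56 and 10.64, with a difference of -0.17 (adjusted p = 0.401).

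Ndufaf6, an assembly factor for the arm that carries the ubiquinone site, had 7.24, 7.59 and 7.51 in HET cells at 4 h, against 7.79, 8.12 and 7.8 in untreated HET cells. These groups also did not overlap, and the difference was -0.46 ± 0.136 (adjusted p = 0.0167). Ndufaf7, also an assembly factor of complex I, had 7.53, 7.8 and 8.09 in HET cells at 4 h, against 7.98, 8.51 and 8.38 untreated. Here 1 treated array lay above the lowest untreated array, that of replicate 1, although the treated array was lower within each replicate number. The difference was -0.48 ± 0.172 (adjusted p = 0.0405). Single HET arrays held these calls: Ndufaf6 was not called without replicate 1 at 4 h (-0.35, adjusted p = 0.0895) or untreated replicate 2 (-0.35, adjusted p = 0.0873). Ndufaf7 was not called without replicate 1 or 2 at 4 h (adjusted p = 0.194 and 0.0747) or untreated replicate 2 or 3 (adjusted p = 0.158 and 0.12), nor with quantile normalization (adjusted p = 0.0589). In KO cells Ndufaf7 differed by -0.08 and Ndufaf6 by -0.22 between 4 h and untreated, neither called.

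Sdhb had 10.66, 11.3 and 11.3 in HET cells at 4 h, against 11.37, 11.62 and 11.63 in untreated HET cells. No treated array reached an untreated one. The difference was -0.46 ± 0.162 (adjusted p = 0.0386), and -0.33 (adjusted p = 0.00262) without HET replicate 1 at all times. Leaving out only the 4 h array of that replicate, the lowest treated one, gave -0.25 (adjusted p = 0.222), and leaving out untreated HET replicate 2 or 3 gave an adjusted p of 0.111 or 0.118. In KO cells, with 11.25, 11.36 and 11.32 at 4 h against 11.49, 11.51 and 11.5 untreated, the groups did not overlap either, at a difference of -0.19 that was not called (adjusted p = 0.495). The other complex II genes were not called after LPS without a block for the replicate number: in HET cells at 4 h the flavoprotein Sdha differed by -0.22, and the membrane anchors Sdhc and Sdhd by -0.24 and -0.04. With the block Sdha was called lower in these cells (adjusted p = 0.00813), as it was without HET replicate 1 (-0.23, adjusted p = 0.0494).

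Ndufb10, an accessory subunit of the complex I membrane arm, had 8.26, 8.68 and 8.58 in HET cells at 4 h, against 8.87, 8.96 and 8.89 untreated, a difference of -0.40 ± 0.106 (adjusted p = 0.00826). With quantile normalization it was -0.21 and not called (adjusted p = 0.116), and in a fit of only the 6 arrays compared the adjusted p was 0.0757. All treated arrays lay below all untreated arrays, as they also did at 2 h and in KO cells at both times. Atp5g2, 1 of the genes for the proton-carrying ring, had 12.54, 12.86 and 12.88 in HET cells at 4 h, against 13.07, 13.12 and 13.02 untreated. Its difference of -0.31 (adjusted p = 0.0426) was -0.20 and not called without HET replicate 1 (adjusted p = 0.0924); it was also not called without any 1 of the untreated HET arrays (adjusted p = 0.0692 to 0.119) or HET replicate 1 at 4 h alone (adjusted p = 0.216). Cox8b had 7.91, 7.58 and 7.79 in HET cells at 4 h, against 7.53, 7.38 and 7.34 untreated, a difference of 0.34 ± 0.103 (adjusted p = 0.0171). It remained called without HET replicate 1, at 0.32 (adjusted p = 0.0296), but not without HET replicate 1 at 4 h alone (0.27, adjusted p = 0.0877), nor without untreated HET replicate 2 (adjusted p = 0.0537) or 3 (adjusted p = 0.0689).

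The promoters of the assembly factor genes with the largest changes, Ndufaf4 and Ndufaf3, are shown beside that of Cox6a1, a complex IV gene with matches to both motifs searched and little change after LPS. Each is the 250 bases before the start in RefSeq on GRCm38.p6, given 5′ to 3′ on the gene's strand; Ndufaf4 is at chr4:24897833-24898082 (+), Ndufaf3 at chr9:108567437-108567686 (-) and Cox6a1 at chr5:115348959-115349208 (-). Capitals mark matches on either strand to GCGCA and GCGC with any 1 base between them, the core of the site of the respiratory gene activator NRF1, or to CCGGAAG, a site of ETS factors such as GABP.
Ndufaf4: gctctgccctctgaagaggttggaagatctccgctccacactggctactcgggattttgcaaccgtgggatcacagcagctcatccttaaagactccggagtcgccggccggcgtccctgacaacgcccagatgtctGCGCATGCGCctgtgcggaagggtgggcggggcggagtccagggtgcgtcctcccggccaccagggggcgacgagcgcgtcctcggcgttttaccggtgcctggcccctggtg
Ndufaf3: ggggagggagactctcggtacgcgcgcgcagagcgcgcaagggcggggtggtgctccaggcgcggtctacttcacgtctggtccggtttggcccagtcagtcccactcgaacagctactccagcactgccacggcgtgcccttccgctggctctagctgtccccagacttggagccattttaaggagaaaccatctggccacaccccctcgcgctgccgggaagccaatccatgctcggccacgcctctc
Cox6a1: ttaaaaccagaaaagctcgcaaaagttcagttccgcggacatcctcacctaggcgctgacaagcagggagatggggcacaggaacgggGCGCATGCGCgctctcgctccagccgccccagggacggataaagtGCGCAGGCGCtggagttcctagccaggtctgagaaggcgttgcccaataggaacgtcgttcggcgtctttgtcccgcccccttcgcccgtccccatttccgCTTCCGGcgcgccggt
Ndufaf4 has 1 NRF1 match, Ndufaf3 has no match to either motif, and Cox6a1 has 2 NRF1 matches and 1 ETS match. Of the 73 members with a promoter in the table, 13 (17.8%) held the NRF1 motif, against 1144 (4.23%) of 27025 genes. The ETS motif was found in 13 (17.8%) of the members, against 2115 (7.83%) of all. At 4 h in HET cells the 13 members with the NRF1 motif had a median difference of -0.19, and the 60 without it -0.15. For the ETS motif the medians were -0.08 for the 13 with it and -0.18 for the 60 without it. Cox6a1 had 11.93, 12.11 and 12.13 in HET cells at 4 h, against 12.07, 12.36 and 11.99 untreated, a difference of -0.08 with overlapping groups.

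The roles differed in how far their genes lay from 0 in HET cells at 4 h. All 7 assembly factors and all 6 core subunits of complex I were lower at 4 h than untreated within each of the 3 replicate numbers. The median differences were -0.46 for the assembly factors, -0.25 for the core subunits, -0.23 for complex II, -0.18 for the accessory subunits, -0.13 for ATP synthase, -0.08 for complex III and -0.07 for the complex IV genes of most tissues. Within complex I the assembly factors Ndufaf1, Ndufaf5 and Ndufaf2 differed by -0.30, -0.28 and -0.24, and Ndufs4, an accessory subunit, by 0.20. None of them was called in the main fit (all arrays as deposited, no block or array weights). The core subunits Ndufs7, Ndufs8 and Ndufs1, which carry iron-sulfur clusters, differed by -0.45, -0.42 and -0.28 and were not called in that fit. Without HET replicate 1 the differences of these core subunits were -0.17, -0.24 and -0.21. With the block for the replicate number all of these genes were called, Ndufs4 higher and the others lower.

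The 8 complex IV isoform genes all lay above 0, with a median of 0.22 (0.14 without HET replicate 1). In all genes the median moved with signal in this comparison. It was 0.16 for the 7789 genes below the 40th percentile, where 3 members lay (median 0.21), and -0.13 for the 6817 genes between the 40th and 75th percentiles, where 23 members lay (median -0.08). The 4869 genes at or above the 75th percentile had a median of -0.18, with 52.7% called, and the 63 members in that range a median of -0.15, with 3 called. The 5 muscle marker genes had a median of 0.23. The part of signal and of muscle markers in the members' differences was not tested. Over all 89 members the median was -0.13, against 0.09 for all genes, and 49 members (55.1%) were lower in all 3 replicate numbers, against 31.6% of all genes. At 4 h, 10 members (11.2%) in HET cells had all treated arrays below all untreated arrays, against 21.8% of all genes.

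In complex III and the catalytic part of ATP synthase no gene was called in HET cells at 4 h without the block. Uqcrc1, a core protein of complex III, had 11.64, 12.25 and 12.37 in HET cells at 4 h, against 12.21, 12.41 and 12.44 untreated. The groups overlapped, and the difference of -0.27 (adjusted p = 0.225) was -0.11 without HET replicate 1. It was called with the replicate number as a block (adjusted p = 0.0247). Uqcrc2, the other core protein, had 12.05, 12.39 and 12.41 in HET cells at 4 h, against 12.21, 12.48 and 12.45 untreated, a difference of -0.09 with overlapping groups (adjusted p = 0.506). Uqcrfs1, the Rieske iron-sulfur protein, had 9.8, 9.72 and 9.7, against 9.51, 9.67 and 9.63 untreated, a difference of 0.14 that was not called (adjusted p = 0.299) although the groups did not overlap. Atp5b, the catalytic beta subunit, had 13.12, 13.52 and 13.51 in HET cells at 4 h, against 13.43, 13.52 and 13.59 untreated. Its difference of -0.13 came with 1 treated array far below the others, that of replicate 1. Cox6c, Uqcrb and Atp5d, the brightest genes of their roles, differed by 0.01, -0.07 and -0.18, none called. Atp5a1, the alpha subunit, differed by -0.05 in KO cells and -0.09 in HET cells at 4 h, and 4 of 8 complex III genes and 8 of 17 ATP synthase genes were lower within each HET replicate number.

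**Figure D2:**
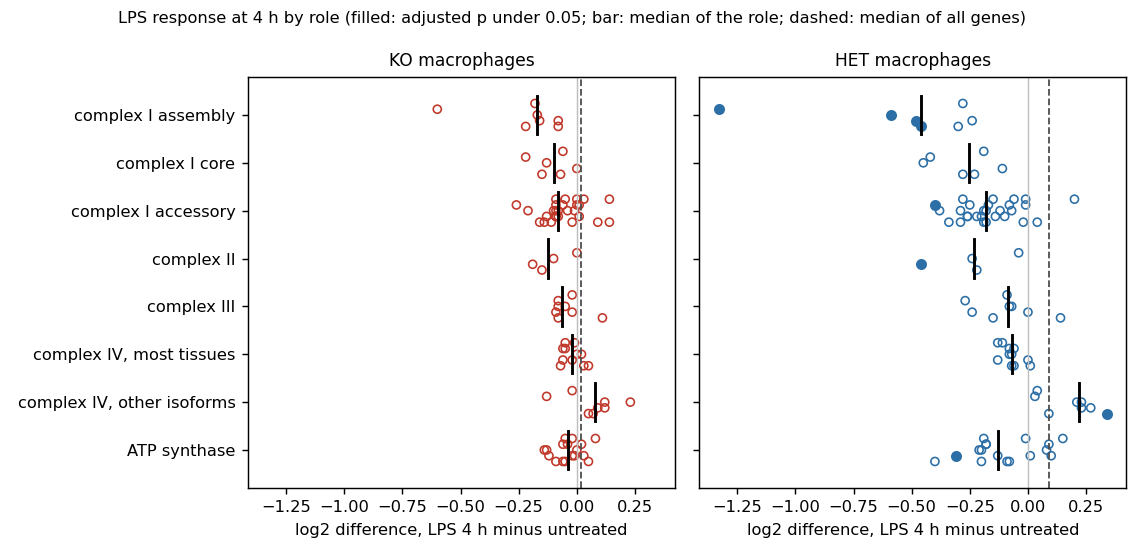
Log2 difference between LPS 4 h and untreated for each of the 89 genes, by role, in KO (left) and HET (right); filled points have an adjusted p under 0.05, bars are role medians and the dashed line is the median of all genes. The assembly factors of complex I have the lowest median in both genotypes, -0.17 in KO and -0.46 in HET, and the complex IV isoforms the highest, 0.08 and 0.22.

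Arrays of the same genotype and replicate number deviated together, with correlations of 0.32 to 0.796 in 18 pairs. With the replicate number within genotype as a block, 33 members (37.1%) were called lower in HET cells at 4 h, against 28.3% of all genes, and 4 higher, against 26.7% of all genes. The lower calls then included all 7 assembly factors, 5 of the 6 core subunits, 11 of the 28 accessory subunits, Sdhb and Sdha of complex II, Uqcrc1 of complex III and 7 of the 17 ATP synthase genes, but none of the 11 complex IV genes of most tissues. The 4 higher calls were Ndufs4 and the isoform genes Cox8b, Cox8c and Cox6a2. These shares of all genes are not matched for signal. Without the block the share of genes called rose from 17.5% below the 40th percentile to 52.7% at or above the 75th, where 63 members lay. Calls with the block were not split by signal.

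In HET cells at 2 h no member was called, against 15.6% of all genes, and 5 members (5.62%) had an unadjusted p under 0.05 (limma), against 26.3% of all genes. The lowest adjusted p was that of Ndufb10, which differed by -0.32 (adjusted p = 0.0536), followed by Ndufaf6 at -0.38 (adjusted p = 0.0767), Ndufaf4, Ndufaf3 at -0.32 (adjusted p = 0.0924) and the accessory subunit Ndufa13 at -0.19 (adjusted p = 0.183). The members' median was -0.08, against 0.02 for all genes. Between the 40th and 75th percentiles of signal it was -0.06 for the members and -0.09 for all genes. At or above the 75th percentile it was -0.11 for the members and -0.09 for all genes. With the block, 8 members were called, all lower, against 18.1% of all genes called lower: Ndufaf4, Ndufaf6, Ndufaf3, Ndufb10, Sdhb, and the accessory subunits Ndufab1, Ndufv3 and Ndufb9.

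In KO cells no member was called after LPS in the main fit, with all arrays as deposited and no block or array weights. At 4 h the count of 0 stood against 15.8% of all genes, with 2 members (2.25%) at an unadjusted p under 0.05, against 26.4% of all genes, and the members' median was -0.06, against 0.02 for all genes. That median for all genes was 0.08 below the 40th percentile of signal. It was -0.08 both between the 40th and 75th percentiles and at or above the 75th. The 23 members in the middle range had a median of -0.08 and the 63 in the top range -0.06. At 2 h the count of 0 stood against 3.35% of all genes, with 1 member (1.12%) at an unadjusted p under 0.05, against 2346 of the 19475 genes, and a median of -0.03. After Ndufb10, the smallest p-values at 2 h were those of Cox8b (0.19), the ATP synthase genes Atp5md (-0.15) and Atp5k (0.20), and Ndufv3 (-0.26), with adjusted p-values of 0.511 to 0.635. At 4 h, 17 members (19.1%) had all treated arrays below all untreated arrays, against 24.0% of all genes, Ndufaf4, Ndufaf5, Ndufaf6, Sdha and Sdhb among them. Ndufb10 had 8.73, 8.56 and 8.57 in KO cells at 2 h, against 8.92, 8.87 and 9.01 untreated. These groups did not overlap. The difference of -0.31 was not called in the main fit (adjusted p = 0.166). It was called with the block (adjusted p = 0.0279), when 4.01% of all genes were called lower. At 4 h the block gave 2 lower calls, against 17.9% of all genes called lower: Ndufaf4 (adjusted p = 0.0105) and Ndufb10 (-0.26, adjusted p = 0.0253).

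For most members the intervals bounded the LPS change to within 0.5 log2 units of 0, a bound wider than the members' median changes. The intervals take the arrays as independent. The 95% interval lay within 0.5 log2 units of 0 for 72 of the 89 members in KO cells at 4 h, for 76 in KO cells at 2 h, for 63 in HET cells at 2 h and for 51 in HET cells at 4 h. Differences beyond 1 log2 unit lay outside the intervals of 87 members in KO cells at 4 h. Cox4i1, the common form of the subunit that ATP regulates, had 11.73, 11.53 and 11.8 in KO cells at 4 h, against 11.86, 11.6 and 11.81 untreated, and its difference of -0.07 had a 95% interval of -0.30 to 0.16. Cox4i2, its lung and hypoxia counterpart, differed by 0.07 in KO cells and 0.09 in HET cells at 4 h, neither called.

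No member was called between the genotypes at any time. In untreated cells the count of 0 stood against 0.416% of all genes, and no member had an unadjusted p under 0.05, against 4.44% of all genes. At 2 h it stood against 2.76% of all genes, with 1 member (1.12%) at an unadjusted p under 0.05, against 2920 of the 19475 genes. At 4 h it stood against 2.42%, with 6 such members (6.74%), against 20.2% of all genes. The KO minus HET median over the members was 0.06 untreated, 0.13 at 2 h and 0.16 at 4 h, against -0.02, 0.00 and -0.06 for all genes, and 70, 79 and 78 of the 89 members lay above 0. Part of this gap went with signal. Genes at or above the 75th percentile of signal had medians of -0.0, 0.07 and 0.10. The 63 members in that range had 0.07, 0.15 and 0.17. At 4 h the genes below the 40th percentile had a median of -0.11. The part of signal was not tested. The smallest p-values in untreated cells were those of Atp5l (0.21), Atp5md (0.17), Cox7a2 (0.18), Ndufa4 (0.16) and Ndufaf2 (0.34), each a KO minus HET difference with an adjusted p of 1. At 2 h they were those of Ndufaf6 (0.29), Ndufa3 (0.17), Ndufaf4 (0.46), Ndufaf5 (0.25) and Atp5c1 (0.23), with adjusted p-values of 0.332 to 0.432.

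These small positive medians rested on HET replicate 1. The members of that replicate lay a median 0.24 log2 units below the other untreated HET arrays, 0.39 below at 2 h and 0.35 below at 4 h, and 71 of 89 (79.8%) were lower at all 3 times, against 20.9% of all genes. These shares are not matched for signal. At 4 h the quartiles of all genes were 7.09 and 9.78 in HET replicate 1. The other HET arrays had a lower quartile of 6.98 and upper quartiles of 10.0 and 10.01. The part of signal in the members' shift was not tested. Without HET replicate 1 the KO minus HET medians were -0.01 untreated, 0.00 at 2 h and 0.05 at 4 h. The 20 cell cycle genes had KO minus HET medians of 0.81 untreated, 0.96 at 2 h and 0.87 at 4 h, with none called, and all 20 were lower in HET replicate 1 than in the other HET arrays; their part in the members' level was not tested.

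**Figure D3:**
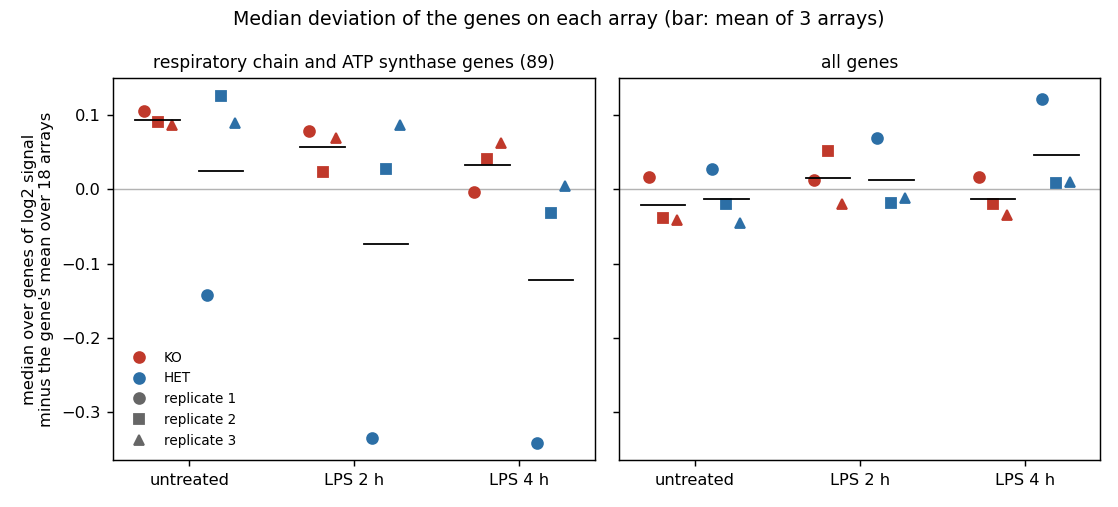
Median over the 89 genes (left) and over all 19475 genes (right) of the log2 signal on each array minus the gene's mean over the 18 arrays, by LPS time, with KO left of HET. HET replicate 1 lies at -0.142 untreated, -0.335 at 2 h and -0.341 at 4 h, below all other arrays of the 89 genes, whereas over all genes it is the highest HET array at each time.

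Among single genes at 4 h of LPS, Ndufaf4 was 0.78 ± 0.244 higher in KO than in HET cells (adjusted p = 0.101), with 8.35 as the lowest KO array and 7.98 as the highest HET array. Ndufaf7 had 8.12, 8.46 and 8.54 in KO cells, against 7.53, 7.8 and 8.09 in HET cells, also with no overlap, and a difference of 0.57 ± 0.172 (adjusted p = 0.09). Cox8b had 7.57, 7.31 and 7.35 in KO cells, against 7.91, 7.58 and 7.79 in HET cells. Its highest KO array lay just under its lowest HET array, and the difference was -0.35 ± 0.103 (adjusted p = 0.081). None of the 3 passed the threshold. Without HET replicate 1 the differences were 0.49 for Ndufaf4, 0.43 for Ndufaf7 and -0.28 for Cox8b.

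At this time 17 members (19.1%) had all KO arrays above all HET arrays, against 13.5% of all genes, and 2 members (2.25%), Cox8b and Ndufa4l2, had all KO arrays below, against 13.8% of all genes. Among the 17 were 5 of the 7 assembly factors, Ndufaf2, Ndufaf3, Ndufaf4, Ndufaf6 and Ndufaf7. By role the KO minus HET median at 4 h was 0.30 for the assembly factors, 0.25 for the core subunits, 0.18 for the accessory subunits, 0.17 for ATP synthase, 0.16 for complexes II and III alike, 0.11 for the complex IV genes of most tissues and -0.13 for the isoforms. Without HET replicate 1 the role medians were 0.21 for the assembly factors, 0.05 for the core subunits, 0.06 for the accessory subunits, 0.05 for ATP synthase, -0.03 for complex II, 0.04 for complex III, 0.07 for the complex IV genes of most tissues and -0.07 for the isoforms.

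**Figure D4:**
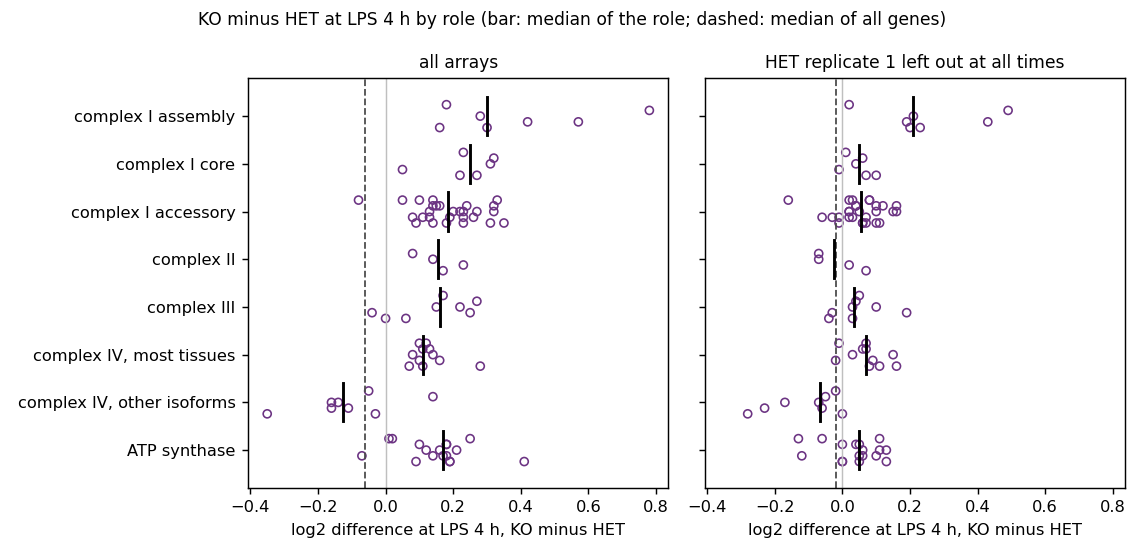
Log2 difference between KO and HET at LPS 4 h for each of the 89 genes by role, with all arrays (left) and with HET replicate 1 left out at all times (right); bars are role medians and the dashed line is the median of all genes. The median of the assembly factors is 0.30 with all arrays and 0.21 without HET replicate 1.

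The response to LPS was set against genotype directly. No member was called for a KO minus HET difference in the response at 2 h, where 0.0% of all genes were called and no member had an unadjusted p under 0.05, against 5.64% of all genes. At 4 h no member was called, against 0.0513% of all genes, and 1 member (1.12%) had an unadjusted p under 0.05, against 7.2% of all genes: Ndufaf3, at 0.42 ± 0.171 (adjusted p = 0.622). Next in order of p at 4 h were Ndufaf4, Cox8b (-0.30), Ndufaf7 (0.40) and Ndufaf6 (0.24), and at 2 h the 5 first were Atp5md (-0.26), Ndufaf3 (0.33), Atp5l (-0.22), the core subunit Ndufs3 (0.17) and Ndufaf4 (0.41), with adjusted p-values of 0.902 to 1. The smaller count of calls in KO than in HET cells is therefore not shown to be a difference between the genotypes. The members' median was 0.07 at 2 h and 0.09 at 4 h, against 0.03 and -0.02 for all genes, and the intervals of 44 members at 4 h lay within 0.5 log2 units of 0. At or above the 75th percentile of signal the medians were 0.09 and 0.10 for the members, against 0.06 and 0.11 for all genes. Between the 40th and 75th percentiles they were 0.04 and 0.08 for the members, against 0.08 and 0.03 for all genes.

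The members differed more between replicates in a few cases than between conditions. Cox6a2, the heart and skeletal muscle isoform of complex IV subunit VIa, had 10.01, 9.95 and 10.13 in KO replicate 2 and 9.81, 10.2 and 9.99 in HET replicate 3 at the 3 times. The other 12 arrays lay between 8.4 and 8.98. Means over the 3 times ranged over 1.47 log2 units between KO replicates and 1.5 between HET replicates; the median range of the members was 0.09 in KO and 0.37 in HET cells, and no other member exceeded 1. The same replicates stood out at each time. Uqcr11, a small subunit of complex III, had its lowest means in the same replicates, 10.87 in KO replicate 2, against 11.36 and 11.39 in the other KO replicates, and 10.66 in HET replicate 3, against 10.94 and 11.39 in the other HET replicates. The cause was not tested.

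Ndufa4 has 2 relatives on the array, of which AA467197 was called after LPS. Ndufa4, a subunit of complex IV despite its name, had 10.9, 10.84 and 10.83 in KO cells at 4 h, against 10.35, 10.71 and 10.68 in HET cells, a difference of 0.28 (adjusted p = 0.173) with no overlap. Its LPS differences at 4 h were 0.05 in KO and -0.07 in HET cells. Ndufa4l2, the hypoxia-induced relative, differed by 0.23 at 4 h in both genotypes, with no overlap between treated and untreated arrays and no call. AA467197 (Nmes1), whose product is known to take the place of Ndufa4 in complex IV of inflamed cells, lay outside the symbol rule.

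AA467197 had 7.9, 7.73 and 8.13 in untreated KO cells, 9.62, 8.79 and 9.8 at 2 h and 11.61, 11.35 and 11.82 at 4 h. HET cells had 10.63, 9.3 and 8.25 untreated, 12.94, 11.86 and 11.55 at 2 h and 13.53, 12.96 and 12.69 at 4 h. KO arrays lay below HET arrays at each time, and both genotypes had their highest arrays at 4 h. At 4 h the gene rose 12.8-fold in KO cells (adjusted p = 5.68e-05) and 12.7-fold in HET cells (adjusted p = 2.53e-05). At 2 h it was lower in KO than in HET cells by -2.72 ± 0.474 (adjusted p = 0.0085; 0.0862 in a fit of only the 6 arrays compared), and the KO minus HET differences of -1.47 untreated and -1.46 at 4 h were not called (adjusted p = 0.453 and 0.111).

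**Figure D5:**
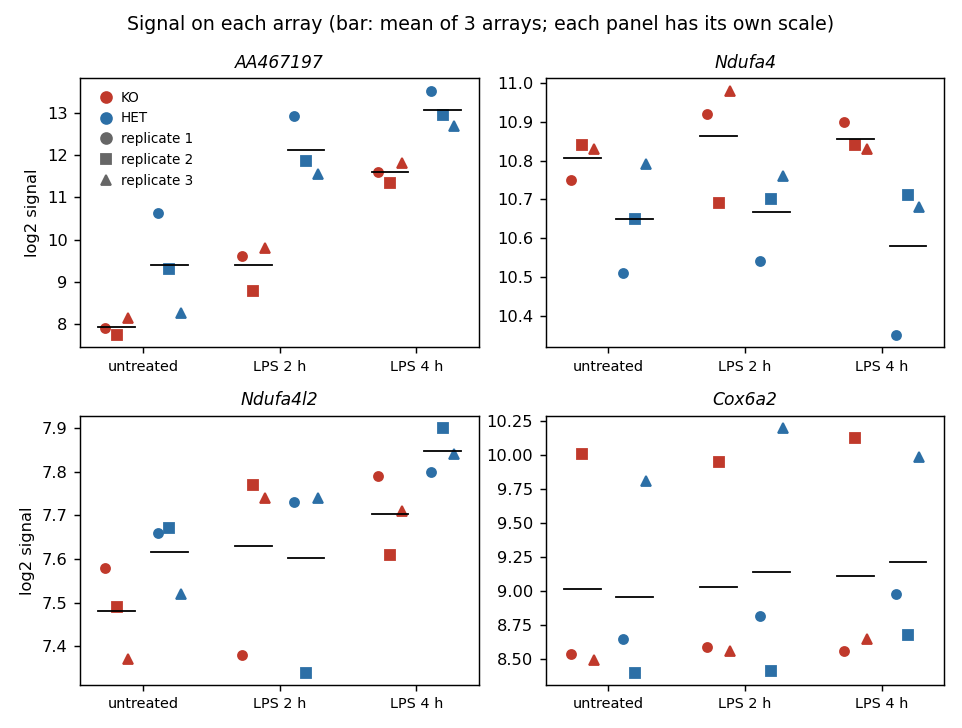
Log2 signal of AA467197, Ndufa4, Ndufa4l2 and Cox6a2 on each array, by LPS time, with KO left of HET; circles, squares and triangles are replicates 1, 2 and 3 and bars are means of 3 arrays. AA467197 reaches 11.35 to 11.82 in KO and 12.69 to 13.53 in HET cells at 4 h, and Cox6a2 lies near 10 in KO replicate 2 and HET replicate 3 at each time.

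Other genes of mitochondrial respiration were counted on lists outside the symbol rule. Of all genes, 9.28% were called lower and 6.48% higher in KO cells at 4 h, and 20.7% lower and 15.7% higher in HET cells. Of 33 assembly factors of complexes I to IV and ATP synthase, 5 fell and 5 rose in KO cells at 4 h (median -0.11), and 16 fell and 7 rose in HET cells (median -0.26). Sdhaf1, which helps insert iron-sulfur clusters into Sdhb, fell by 0.70 in KO cells (adjusted p = 0.0145) and by 1.55 in HET cells (adjusted p = 1.04e-05). At 4 h it was 0.94 higher in KO than in HET cells (adjusted p = 0.0125), a call lost without HET replicate 1 (adjusted p = 0.0669), KO replicate 2 (adjusted p = 0.0756) or KO replicate 3 (adjusted p = 0.0644) at that time. In KO cells its LPS call was lost without replicate 1 at 4 h (adjusted p = 0.0766) or untreated replicate 3 (adjusted p = 0.0647). At 2 h Sdhaf1 was also called higher in KO than in HET cells, a call lost without any 1 of the KO arrays at that time. Tmem126b, a factor for the membrane arm of complex I, fell by 1.52 in HET cells (adjusted p = 0.00123), and Sco1, a copper chaperone of complex IV, rose by 1.51 (adjusted p = 5.37e-05). Sco1 was also called lower in KO than in HET cells at 4 h. That call was lost without HET replicate 1 (-0.57, adjusted p = 0.141), KO replicate 1 or KO replicate 2 at that time.

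Of 16 genes of mitochondrial DNA expression and biogenesis, 3 fell and 1 rose in KO cells at 4 h (median -0.12), and 8 fell and 3 rose in HET cells (median -0.28). Tfb2m, a mitochondrial transcription factor, differed by -0.45 in KO cells (adjusted p = 0.243) and by -1.15 in HET cells (adjusted p = 0.00128). Polg2, the accessory subunit of the mitochondrial DNA polymerase, fell by 0.84 in KO cells and 0.86 in HET cells, whereas the regulators of respiratory genes Nrf1 (-0.13 in KO and -0.21 in HET cells) and Esrra (0.25 and 0.02) were not called. Twnk, the mitochondrial helicase, fell in both, by 0.69 in KO cells and 0.91 in HET cells. At 2 h Twnk was called higher in KO than in HET cells, a call lost without any 1 of the KO arrays at that time (adjusted p = 0.0644 to 0.0828). Of 19 genes of the citric acid cycle and pyruvate entry, none was called in KO cells (median -0.09), where none had an unadjusted p under 0.05, and 3 fell and none rose in HET cells (median -0.32). Cs, citrate synthase, and Mdh2, malate dehydrogenase, differed by -0.10 and -0.15 in KO cells and by -0.23 and -0.39 in HET cells, without a call. Idh3a, a subunit of isocitrate dehydrogenase, was 1 of them (-0.81, adjusted p = 0.0187), a call lost without untreated HET replicate 3 (adjusted p = 0.0521). Without HET replicate 1 at any time Idh3a differed by -0.39 (adjusted p = 0.00425). Of 10 carriers and electron donors, only AA467197 was called in KO cells (list median -0.09). In HET cells (list median -0.23) AA467197 and Cycs, the cytochrome c gene, rose, and Etfdh, which feeds electrons from fat oxidation to ubiquinone, and the phosphate carrier Slc25a3 fell. Both lower calls were lost without HET replicate 1 at 4 h or untreated HET replicate 2 or 3 (adjusted p = 0.0665 to 0.109 for Etfdh). Cycs rose by 0.26 (adjusted p = 0.0084), and was not called with quantile normalization or in a fit of only the 6 arrays compared. Without HET replicate 1 at any time, the counts of lower calls at 4 h were 11 in KO cells and 17 in HET cells for the 33 assembly factors, 6 and 8 for the 16 genes of mitochondrial DNA, 4 and 7 for the 19 genes of the citric acid cycle, and 2 and 2 for the 10 carriers. Of the 19475 genes 3512 were then called lower in KO cells and 4197 in HET cells, against 1807 and 4028 with all arrays.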

How the data were processed

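The values were the authors' deposited log2 expression values per probe set, made with RMA in Partek 6.5 per the submitters' processing notes; the sources used here give no settings or filters. They were used as deposited, with no further scaling. Of 25344 probe sets, 21137 had a single gene in the platform's table, 1530 several and 2677 none; the last 2 kinds were left out. For genes with several probe sets the one with the highest mean was used, which leaves 19475 genes. All 89 members matched the RefSeq table. No column was left unused.

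All genes entered 1 limma fit (version 3.58.1, R 4.3.3) with 6 group means (12 residual degrees of freedom, prior degrees of freedom 3.17), and p-values were adjusted by Benjamini-Hochberg over all genes of a comparison and called under 0.05. It was tested on data simulated with independent noise on each array. That test does not cover arrays that deviate together. The labels do not say that a replicate number marks a shared culture; arrays of one genotype and number correlated at 0.32 to 0.796 in deviations from their group means, and arrays of different genotypes at -0.353 to 0.39. The number was therefore taken as a block within genotype only as an alternative, beside the LPS results it changed. Other alternatives were the scaling, the filter on dim genes, the mean of probe sets, prior and array weights, only the arrays compared, and arrays left out.

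The members, the lists and the roles were chosen with earlier results of these data known. Genes named are all called members of a comparison, or the 5 with the smallest p where fewer than 5 were called, the complex II, Ndufa4 and Cox4 genes, the brightest gene of each role, and up to 4 called and 2 other genes of each list; Cox6a2, Uqcr11, Ndufs4, Cox6a1 and further examples within a role were chosen after their values were seen. Plots come from matplotlib 3.10.9 under Python 3.11.15.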

Additional observations from a re-analysis of the deposited data

Results flagged for a closer look

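Ndufa11, an accessory subunit of complex I, and the assembly factor Ndufaf1 differed in direction between the genotypes at 2 h of LPS: within each replicate number the treated array was higher than the untreated one in all 3 KO replicates and lower in all 3 HET replicates. For Ndufa11 the changes were 0.08, 0.01 and 0.03 in KO cells and -0.33, -0.07 and -0.03 in HET cells, and the KO minus HET difference in the response was 0.18 (limma adjusted p = 1). For Ndufaf1 they were 0.02, 0.04 and 0.07 in KO cells and -0.10, -0.15 and -0.21 in HET cells, with a difference of 0.19 (adjusted p = 1). Neither difference passed the test, and the opposite directions themselves were not tested. At 2 h, 23.0% of all genes were higher in all 3 KO replicates and 28.6% were lower in all 3 HET replicates. The share of all genes with both was not counted, so these members are not shown to differ from other genes.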

How the results depend on the processing

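No called result changed sign, but medians near 0 lay on either side of it when 1 array was left out: KO minus HET was -0.007 to 0.116 untreated and -0.001 to 0.211 at 2 h, LPS at 2 h in HET cells -0.173 to 0.035, and the difference in response -0.047 to 0.153 at 2 h and -0.032 to 0.166 at 4 h. In HET cells at 4 h, where 8 members were called, the count was 13 with array weights, 2 with only the arrays compared, 37 with the replicate block within genotype, 22 with the block as a random term and 3 to 11 when 1 array was left out (3 without HET replicate 1 at 4 h or untreated HET replicate 2, 4 without untreated HET replicate 3). Another scaling changed the split of 1 higher and 7 lower: it was 6 and 6 with quantile normalization and 2 and 5 with arrays centred on their medians. Leaving out dim genes gave 0 and 8, and leaving out HET replicate 1 at all times, chosen after seeing the data, 1 and 11. Ndufaf4 and Ndufaf3 kept their calls under every alternative run; Ndufb10 lost its call with quantile normalization and with only the arrays compared, and Sdhb, Ndufaf6, Ndufaf7, Atp5g2 and Cox8b lost theirs under more settings, given in part above. Counts of 0 became, in HET cells at 2 h, 1 with quantile normalization, 1 without dim genes, 2 with array weights, 8 with the block, 4 with the random block and 0 to 2 with 1 array left out; in KO cells at 4 h, 2 with quantile normalization (both higher), array weights, only the arrays compared, the block or the random block, and 4 without HET replicate 1; in KO cells at 2 h, 1 with array weights, the block, the random block or without HET replicate 1; and for KO minus HET at 4 h, 1 with array weights, 3 with the replicate block (of 6.54% of all genes; Ndufaf4 and Ndufaf7 higher, Cox8b lower; the numbers do not pair arrays across genotypes) and 0 to 1 with 1 array left out. The block changed no other count by over 1.5 times. The members' median in KO cells was -0.054 at 2 h with centring and -0.061 with quantile normalization, against -0.028 as deposited, and -0.064 to -0.026 at 4 h with 1 array left out. The KO minus HET median at 4 h was 0.046 to 0.221 and that of LPS at 4 h in HET cells -0.212 to -0.019 with 1 array left out. With 3 arrays a group the median 95% interval reached 0.28 log2 units to each side, and 0.39 for a difference in response.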
